A study of Saccharomyces cerevisiae SK1 with 28 samples.

Results

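Promoter occupancy in sporulation medium was set against that after 21 h in BYTA, a pre-sporulation medium, in wild-type SK1, a strain of Saccharomyces cerevisiae used for its efficient sporulation. The 8 ChIP-seq tables compared were the 2 libraries of 21 h BYTA and 2 libraries from each of 3 times in sporulation medium (5.5 h, 6 h 45 min and 8 h), out of 14 ChIP tables in the series. They were chosen by their labels alone. The starting density was OD600 0.2 for BYTA and 1.9 for sporulation medium, and some 90 OD600 units were collected from BYTA against 170 from sporulation medium. All cells were wild type, were grown at 30 °C and were fixed with 1% formaldehyde for 15 min. Medium, time and amount of cells therefore changed together between the sides and cannot be told apart. The labels do not name the immunoprecipitated protein. They also leave unsaid whether replicates were separate cultures, and p-values then measure only the spread between these libraries.

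BYTA holds acetate, a carbon source that yeast can only respire, and SK1 cells reach saturation in it before they are moved to sporulation medium. There, starved of nitrogen and of a fermentable sugar, diploid cells enter meiosis and package the products into spores. The series as a whole concerns the unfolded protein response (UPR), in which Ire1 senses misfolded protein in the endoplasmic reticulum (ER) and splices the mRNA of HAC1. The Hac1 protein then binds UPR elements in promoters such as that of the chaperone gene KAR2.

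Each table pairs a peak summit with every 600 bp promoter window, upstream of a gene, that holds it. A summit between 2 divergent genes is therefore listed for both. Summits of different tables that lay within 100 bp of each other were treated as 1 site. A gene is termed called at 21 h when both 21 h tables list it, and called in sporulation medium when both tables of at least 1 time list it. Absence from a table means only that no summit was listed there, not that the promoter was free. Fewer cells with a bound promoter and weaker binding in each cell cannot be told apart in these libraries.

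The 2 media shared a common core of promoters, and each promoter called on one side was listed at least once on the other. At 21 h 27 genes at 16 sites were called, and in sporulation medium 17 genes at 9 sites. Of these, 15 genes at 8 sites were called on both sides, which is 55.6% of the 21 h calls and 88.2% of the sporulation calls. All 27 genes called at 21 h were listed in at least 1 sporulation table, and both remaining sporulation calls, KAR2 and TAD2, were listed in 1 of the 2 tables at 21 h. Over 6021 protein-coding genes of the R64 reference, the percentage called was 0.448 at 21 h, 0.282 in sporulation medium and 0.249 on both sides. Over single tables, 46 genes were listed at 21 h (0.764% of protein-coding genes) and 38 in sporulation medium (0.631%), with 32 in common. That is 69.6% of the genes listed at 21 h and 84.2% of those listed in sporulation medium.

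**Figure D1:**
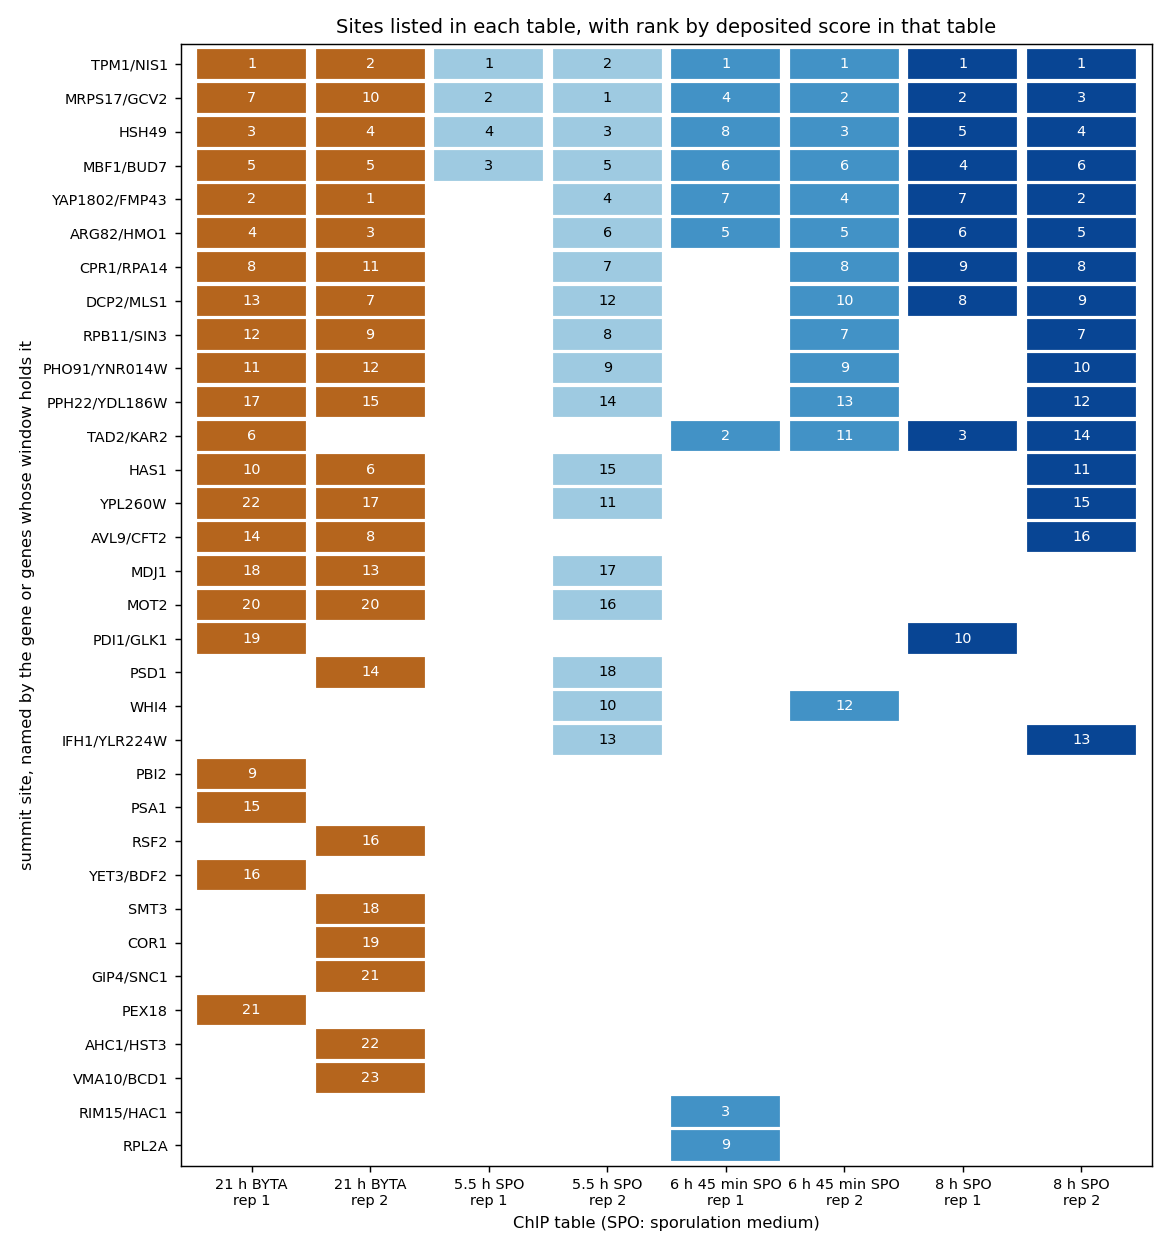
Each row is 1 of the 33 sites, named by the gene or genes whose promoter window holds the summit, and each column is 1 ChIP table. A filled cell marks a listed summit and the number in it is the rank by deposited score within that table, 1 being the highest. The top 4 rows are filled in all 8 tables, and 8 sites called at 21 h have no filled cell in any replicate 1 table of sporulation medium.

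The 21 h lists were longer. They held 36 genes in replicate 1 and 37 in replicate 2. In sporulation medium the lists held 7 and 29 genes at 5.5 h, 16 and 24 at 6 h 45 min, and 19 and 29 at 8 h, with replicate 1 first. Both 21 h lists were longer than all 6 sporulation lists, with means of 36.5 ± 0.707 (SD, n = 2) and 20.7 ± 8.5 genes (SD, n = 6). The exact two-sided permutation test over libraries gave p = 0.0714, the smallest that 2 libraries against 6 allow, and 0.143 after adjustment over 8 library measures, so the difference in length cannot pass a threshold of 0.05 in this design. The difference of 15.8 genes fell to 7.83 with only scores of at least 500 (exact p = 0.357) and to 6.17 with the 15 best-scored summits of each table (exact p = 0.429). The cap of 15 shortened both 21 h lists, of 22 and 23 summits, but left the sporulation lists of 4, 9, 10 and 13 summits whole. A fall under the cap was therefore built in.

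The shorter sporulation lists were drawn from libraries with higher peak numbers. Peaks were numbered along the genome with chromosomes in name order, which held for the listed summits of every table. The summit at HSH49, near the end of chromosome XV, is listed in all 8 tables, and its number tells how many peaks the authors numbered up to that point. It was 1365 and 1094 at 21 h. In sporulation medium it was 1494 and 1752 at 5.5 h, 3099 and 1850 at 6 h 45 min, and 1713 and 2839 at 8 h. All 6 sporulation values lay above both 21 h values (exact two-sided permutation test, p = 0.0714, the smallest possible, adjusted 0.143). The lowest listed score ranged from 266 to 344 at 21 h and from 247 to 383 in sporulation medium, so the score at which the lists end overlapped between the sides. The part of peak number in the list lengths was not tested.

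**Figure D2:**
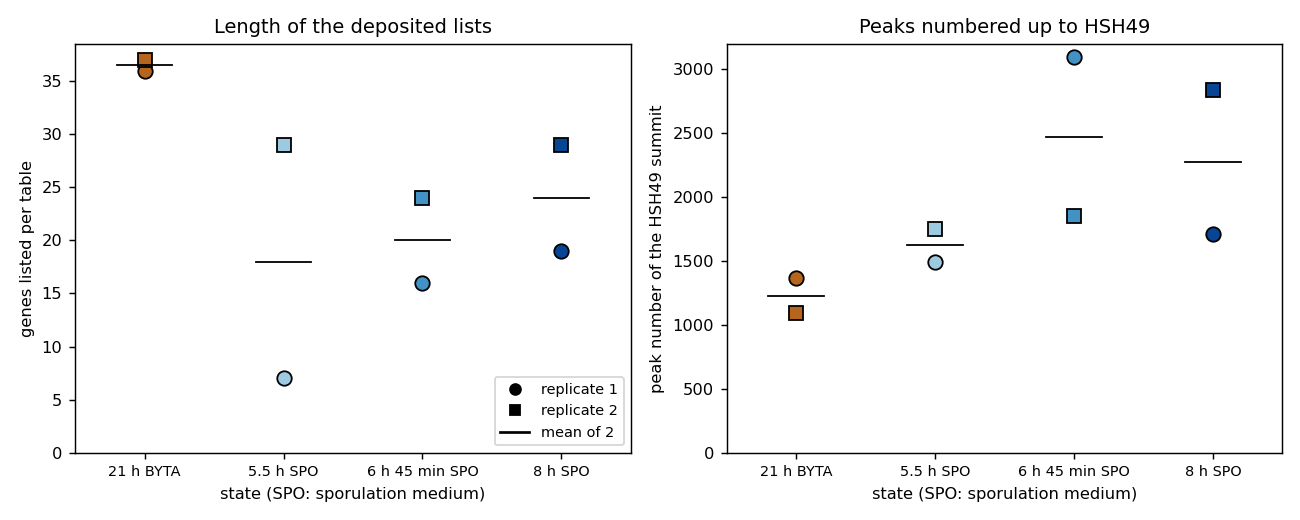
Left, genes listed per table. Right, peak number of the summit at HSH49 in the same tables. Circles are replicate 1, squares replicate 2 and bars the mean of 2. The 21 h tables have the most genes (36 and 37) and the lowest peak numbers (1365 and 1094).

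At 4 sites, with 7 genes, a summit was listed in all 8 tables. The divergent pair TPM1 and NIS1 led most lists. TPM1 encodes the major tropomyosin, which stabilises actin cables, and NIS1 a protein of the bud neck. Their summits lay between positions 482493 and 482511 of chromosome XIV in the deposited SK1 coordinates, 196 to 214 bp upstream of TPM1 and 393 to 411 bp upstream of NIS1. The authors' score there was 2270 and 1654 at 21 h, 1200 and 2035 at 5.5 h, 1582 and 1224 at 6 h 45 min, and 1347 and 1708 at 8 h. It was the highest-scored summit of its table in 6 of 8 tables and rank 2 in 21 h replicate 2 and 5.5 h replicate 2. The deposited score is the authors' value of unnamed type and depends on the library, so it is used here mainly to order summits within a table. It is also used across tables where a fixed minimum score is applied and where the lowest listed scores of the sides are compared. Those uses take scores of different libraries as comparable, which was not tested.

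HSH49 encodes a protein of the U2 snRNP, which recognises the intron branch site in splicing. It is the only one of the 4 sites with a single gene. Its summits, in the window of SK1_15G04290, were 169 to 181 bp from the gene start. The divergent pair MBF1 and BUD7 encodes a coactivator of the amino acid regulator Gcn4 and a cargo adaptor of Golgi export. Their summits lay 243 to 263 bp upstream of MBF1 and 487 to 507 bp upstream of BUD7. HSH49 held ranks 3 and 4 in the 21 h lists and ranks 3 to 8 in the sporulation lists. MBF1 with BUD7 held rank 5 in both 21 h lists and ranks 3 to 6 in sporulation medium.

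The promoter between MRPS17 and GCV2 changed its place in the order between the media. MRPS17 encodes a protein of the small mitochondrial ribosomal subunit and GCV2 the glycine decarboxylase subunit of the glycine cleavage complex. The summits lay at positions 610276 to 610289 of chromosome XIII, 183 to 196 bp upstream of MRPS17 and 300 to 313 bp upstream of GCV2. At 21 h the score was 1295 and 514, which placed the site at rank 7 of 22 and rank 10 of 23 summits. In sporulation medium the score was 378 and 2105 at 5.5 h, 574 and 1210 at 6 h 45 min, and 1018 and 1299 at 8 h. Among the 4 sites that all 8 tables list, MRPS17 with GCV2 was at rank 4 in both 21 h tables and at rank 1 or 2 in all 6 sporulation tables, so the ranks did not overlap.

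The same held among the 6 sites that 7 tables list, that is without 5.5 h replicate 1. There MRPS17 with GCV2 ranked 6 in both 21 h tables and between 1 and 3 in the 5 sporulation tables. Among the 4 sites, HSH49 went from rank 2 in both 21 h tables to rank 3 or 4 in sporulation medium. MRPS17 with GCV2 ranked above HSH49 in all 6 sporulation tables, which alone takes HSH49 from rank 2 to rank 3. In the 3 replicate 1 tables of sporulation medium MBF1 with BUD7 also scored above HSH49, which put HSH49 at rank 4. The scores there were close, with 258 against 247 at 5.5 h, 392 against 365 at 6 h 45 min and 905 against 892 at 8 h. At 21 h HSH49 had the higher score of the 2 sites, with 1877 against 1499 in replicate 1 and 1460 against 1099 in replicate 2. Among the 6 sites the ranks of HSH49 overlapped (3 and 4 against 3 to 6). Scores at the margin were close in 8 h replicate 2, with 1299 for MRPS17 with GCV2 and 1294 for HSH49. These ranks were compared without a test, because the sites were picked out after their values had been seen.

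**Figure D3:**
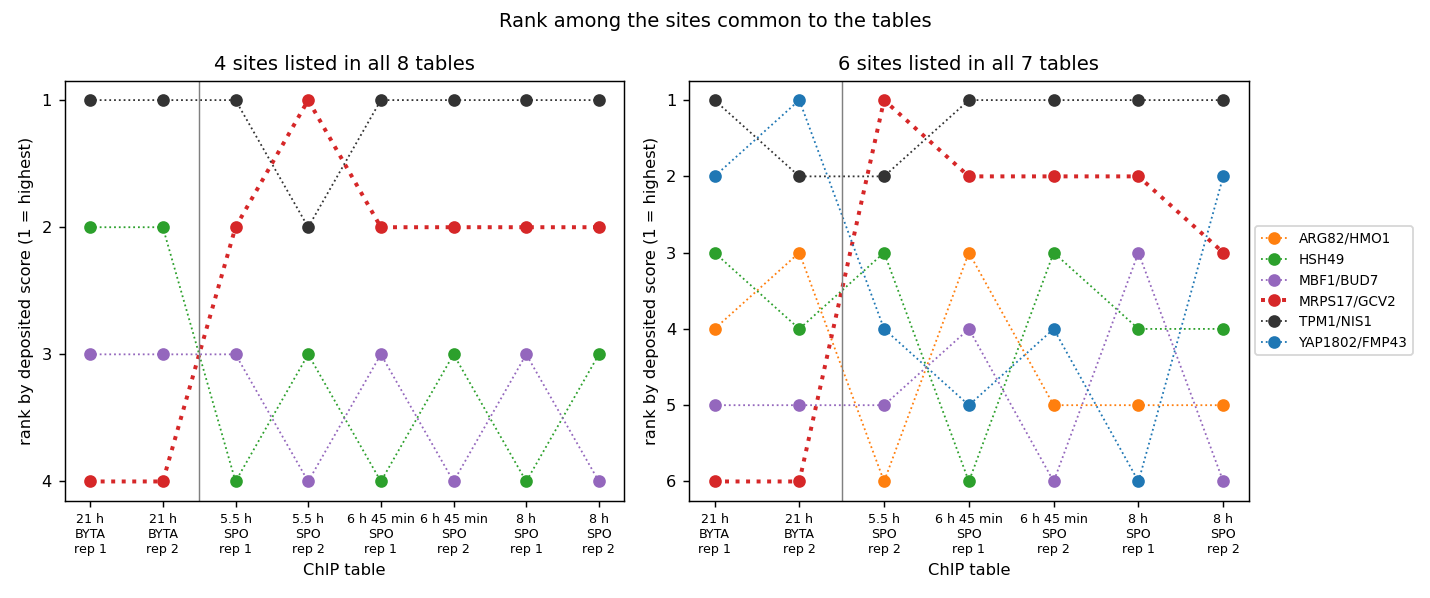
Rank by deposited score among the 4 sites listed in all 8 tables (left) and the 6 sites listed in the 7 tables other than 5.5 h replicate 1 (right), with 1 as the highest. Points are tables, dotted lines join the points of a site and the vertical line parts 21 h BYTA from sporulation medium. The thick line, MRPS17 with GCV2, is at the bottom in both 21 h tables and in the top 3 in each sporulation table.

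A further pair of sites was listed in both 21 h tables and in every sporulation table except 5.5 h replicate 1, which listed 4 summits in all. YAP1802 encodes an adaptor of the AP180 family for clathrin coats and FMP43 a subunit of the mitochondrial pyruvate carrier. Their site had ranks 2 and 1 at 21 h, with scores of 2125 and 1842. In sporulation medium it had rank 4 at 5.5 h (score 1623), ranks 7 and 4 at 6 h 45 min (370 and 831), and ranks 7 and 2 at 8 h (756 and 1317). The 21 h and sporulation ranks of this site met at rank 2. ARG82 encodes an inositol polyphosphate kinase and HMO1 a high-mobility-group protein of ribosomal DNA and ribosomal protein gene promoters. Their site had ranks 4 and 3 at 21 h (1784 and 1597). In sporulation medium it had rank 6 at 5.5 h (1475), rank 5 in both tables at 6 h 45 min (455 and 812), and ranks 6 and 5 at 8 h (870 and 1260).

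CPR1 with RPA14 and DCP2 with MLS1 were called on both sides through the 8 h tables. CPR1 encodes cyclophilin A, RPA14 a subunit of RNA polymerase I, DCP2 the mRNA decapping enzyme and MLS1 malate synthase of the glyoxylate cycle, by which yeast builds sugars from acetate. The CPR1 site had scores of 1044 and 437 at 21 h, 1345 in 5.5 h replicate 2, 530 in 6 h 45 min replicate 2, and 431 and 948 at 8 h. The DCP2 site had 692 and 752 at 21 h, 665 in 5.5 h replicate 2, 442 in 6 h 45 min replicate 2, and 691 and 659 at 8 h. Both sites were thus listed in all 3 replicate 2 tables of sporulation medium and in the replicate 1 table of 8 h.

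The remaining 12 genes called at 21 h, at 8 sites, were called at no sporulation time. Every one was listed in at least 1 replicate 2 table of sporulation medium and none in a replicate 1 table. Across all 27 genes called at 21 h, 27 were listed in a replicate 2 sporulation table and 15 in a replicate 1 table. The replicate 1 tables of sporulation medium listed 4, 9 and 10 summits and those of replicate 2 listed 18, 13 and 16. Calling sporulation genes with 5.5 h replicate 1 left out, so that replicate 2 stood alone for that time, gave 31 sporulation genes, 25 of them shared with 21 h. Leaving out 6 h 45 min replicate 1 gave 24 and 21, and leaving out 8 h replicate 1 gave 29 and 25. Each of these counts could only stay or rise, since 1 table then sufficed for a call at that time.

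Of these 12 genes, 6 were listed in all 3 replicate 2 sporulation tables. They were RPB11 with SIN3, PHO91 with YNR014W, and PPH22 with YDL186W. RPB11 encodes a subunit of RNA polymerase II and SIN3 the scaffold of the Rpd3 histone deacetylase complex, which represses early meiotic genes during growth. Scores at their shared summits were 714 and 663 at 21 h, and 888, 538 and 1003 in the replicate 2 tables of 5.5 h, 6 h 45 min and 8 h. This was rank 12 and 9 at 21 h and rank 8, 7 and 7 in sporulation medium. PHO91 encodes a phosphate transporter of the vacuole, and its site had scores of 746 and 413 at 21 h and 799, 463 and 599 in the same 3 tables. PPH22 encodes a catalytic subunit of protein phosphatase 2A, with scores of 475 and 394 at 21 h and 617, 261 and 478.

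The other 6 were listed more thinly in sporulation medium. HAS1, which encodes an RNA helicase of ribosome assembly, had ranks 10 and 6 at 21 h (scores 798 and 844), and was listed in replicate 2 of 5.5 h (553) and 8 h (489). YPL260W was listed in the same tables, with scores of 344 and 355 at 21 h and 714 and 370 in sporulation medium. AVL9 with CFT2, a gene of exocytic transport and a subunit gene of the mRNA cleavage and polyadenylation factor, had scores of 681 and 670 at 21 h. They were listed in sporulation medium in 8 h replicate 2 alone, at 361, the last of 16 summits. MDJ1, for a J-domain chaperone of mitochondria, had 448 and 398 at 21 h and 336 in 5.5 h replicate 2. MOT2, for a ubiquitin ligase of the Ccr4-Not complex, had 373 and 302 at 21 h and 341 in 5.5 h replicate 2. MDJ1 and MOT2 were listed in no sporulation table once the 5.5 h time was left out. AVL9 and CFT2 were listed in none once scores under 500 were left out.

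Of the ER folding and UPR signalling genes looked for, KAR2, PDI1 and HAC1 were listed. KAR2, for the ER Hsp70 chaperone BiP, shares its summit with TAD2, for a subunit of a tRNA deaminase. At 21 h replicate 1 listed the site at 1446, rank 6 of 22, and replicate 2 did not list it. Neither table of 5.5 h listed it. At 6 h 45 min it had 1440, rank 2 of 9, in replicate 1 and 379, rank 11 of 13, in replicate 2. At 8 h it had 917, rank 3 of 10, and 417, rank 14 of 16. In the 3 replicate 1 tables that list KAR2 it thus ranked between 2 and 6, and in the 2 replicate 2 tables that list it, 11 and 14. Its 5 summits lay within 7 bp, 156 to 163 bp upstream of KAR2.

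PDI1, for protein disulfide isomerase of the ER, shares its summit with GLK1, for glucokinase. The pair was listed in 21 h replicate 1 (379, rank 19 of 22) and in 8 h replicate 1 (383, the last of 10 summits). HAC1, with its divergent neighbour RIM15 for a kinase of nutrient starvation and entry into meiosis, was listed only in 6 h 45 min replicate 1 (576, rank 3 of 9), 226 bp upstream of HAC1 and 543 bp upstream of RIM15. ERO1, for the oxidase that recharges Pdi1, was listed in none of the 8 tables. From the ER folding list of 19 genes, KAR2 and PDI1 were listed on each side, and 1, KAR2, was called in sporulation medium against 0 at 21 h. Of the 4 matched UPR signalling genes, HAC1 was listed in sporulation medium and 0 were called on either side. Of all protein-coding genes, 0.764% were listed at 21 h and 0.631% in sporulation medium, and 0.448% and 0.282% were called. The 2 of 19 ER folding genes listed on each side were thus a larger share than that of all genes listed. No test was made of these lists.

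A few genes were listed in sporulation medium and in neither 21 h table, 6 in all, and none of them was called. WHI4, for an RNA-binding protein of cell size control, was listed in replicate 2 of 5.5 h (751, rank 10 of 18) and of 6 h 45 min (268, rank 12 of 13). IFH1, for a coactivator of ribosomal protein genes, and its neighbour YLR224W were listed in replicate 2 of 5.5 h (630) and of 8 h (420), with both summits at position 557190 of chromosome XII. RIM15, HAC1 and RPL2A, for a protein of the large ribosomal subunit, were listed in 6 h 45 min replicate 1 alone.

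In the other direction 14 genes were listed at 21 h and in no sporulation table, each in a single 21 h table. Replicate 1 held 5 of its 36 genes in this class. They were PBI2, for an inhibitor of vacuolar proteinase B (929, rank 9 of 22), PSA1, for GDP-mannose pyrophosphorylase (542), YET3, for an ER membrane protein, with BDF2, for a bromodomain protein (489), and PEX18, for a peroxisomal import factor (353). Replicate 2 held 9 of its 37 genes. They were RSF2, a zinc finger regulator gene (386), SMT3, for the ubiquitin-like modifier SUMO (335), COR1, for a core subunit of respiratory complex III (322), GIP4 with SNC1 (287), AHC1 with HST3 (284), and VMA10 with BCD1 (266). SNC1 encodes a vesicle SNARE, HST3 a histone deacetylase of the sirtuin family and VMA10 a subunit of the vacuolar proton pump. PSD1, for phosphatidylserine decarboxylase, was listed in 21 h replicate 2 (394) and 5.5 h replicate 2 (311), both at position 321125 of chromosome XIV.

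A test of each gene over the 8 tables called none. Two-sided Fisher exact tests of the number of tables listing a gene, 2 against 6, were run on the 52 genes listed anywhere. At an adjusted p under 0.05, 0 passed (0% of the genes tested), and 0 had an unadjusted p under 0.05. The lowest exact p was 0.107 (adjusted 0.722), for AVL9, CFT2, MDJ1 and MOT2, each in 2 of 2 tables at 21 h and 1 of 6 in sporulation medium. A gene in both 21 h tables and no sporulation table would have reached 0.0357 before adjustment, so the design leaves no room for a gene to pass on its own.

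Summits lay at nearly the same positions in both media. For the 8 sites called on both sides, the mean summit at 21 h and the mean summit in sporulation medium lay a median of 3.78 bp apart, from 2.25 to 16 bp. Replicate tables of the same state differed at these sites by a median of 4.5 bp over 26 pairs, at most 32 bp. The 2 measures are unlike, since the first lies between means over tables and the second between single summits. Means vary less than single summits, so this does not place the distance between media within the replicate spread. The shift was largest at ARG82 with HMO1. Its summits lay at positions 800007 and 800003 of chromosome IV at 21 h. In sporulation medium they lay at 800020 in 5.5 h replicate 2, at 800029 and 800014 at 6 h 45 min, and at 800020 and 800022 at 8 h. All 5 sporulation summits were farther from the ARG82 start and nearer to the HMO1 start than both 21 h summits, by 16 bp on average (SD 5.39 bp in sporulation medium, n = 5). The exact permutation test gave p = 0.0952, the smallest for 2 tables against 5, and 0.62 after adjustment over 13 sites.

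Position was tested at the 13 sites listed in both 21 h tables and at least 2 sporulation tables, and 0 passed after adjustment, with 0 at an unadjusted exact p under 0.05. The smallest p that the permutation test allowed at these sites ran from 0.0714 to 0.333. No site could therefore fall under 0.05 whatever its positions, and these counts do not tell whether summits shifted. At 3 of the 13 (23.1%) the positions of the sides did not overlap, namely ARG82 with HMO1, PHO91 with YNR014W, and PPH22 with YDL186W. PHO91 summits lay at 660795 and 660802 of chromosome XIV at 21 h and at 660789, 660789 and 660794 in sporulation medium. PPH22 summits lay at 138910 and 138909 of chromosome IV at 21 h and at 138905, 138902 and 138905 in sporulation medium. Each of these pairs had an exact p of 0.2, the smallest for 2 tables against 3.

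**Figure D4:**
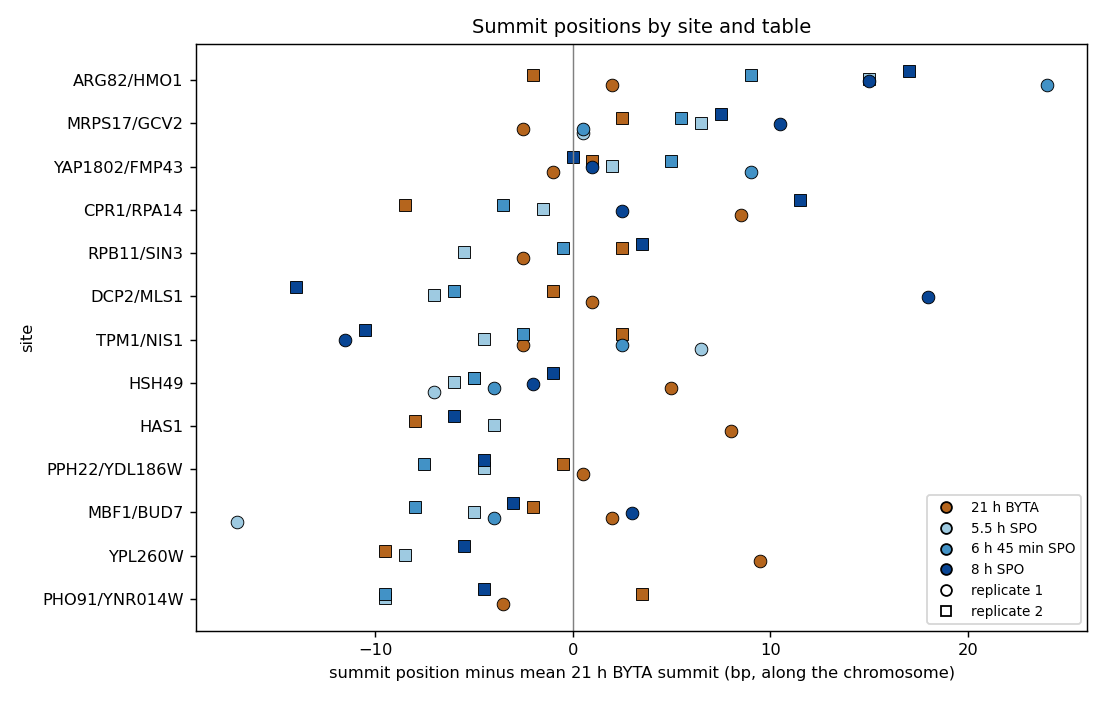
Distance of each listed summit from the mean 21 h summit of its site, in bp along the chromosome, for the 13 sites listed in both 21 h tables and at least 2 sporulation tables. Circles are replicate 1 and squares replicate 2, coloured by state. At ARG82 with HMO1 all 5 sporulation summits lie to the right of both 21 h summits.

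Called promoters were also counted by functional list, beside 0.448% of all protein-coding genes called at 21 h and 0.282% in sporulation medium. Of 21 genes listed for septins, actin cables and the bud neck, TPM1, NIS1 and BUD7 were called on both sides. BUD7 was in that list as drawn up, although it encodes the cargo adaptor of Golgi export named above. Of 21 for ribosome biogenesis and RNA polymerase I, HAS1, HMO1 and RPA14 were called at 21 h, and HMO1 and RPA14 in sporulation medium. Of 25 for glycine, one-carbon and general amino acid control, GCV2 and MBF1 were called on both sides. Of 22 heat shock genes, CPR1 and MDJ1 were called at 21 h and CPR1 in sporulation medium. The lists of acetate and glyoxylate metabolism, mitochondrial translation, inositol polyphosphate kinases with arginine regulators, clathrin adaptors, mRNA decay and the U2 snRNP each had 1 member called on both sides, namely MLS1, MRPS17, ARG82, YAP1802, DCP2 and HSH49. Several of these lists were drawn up around genes already known to be listed, so their counts are no evidence of a theme.

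Several lists had no listed member. Of 23 genes of early meiosis and 32 of middle meiosis and the spore wall, 0 were listed in any of the 8 tables. The same was so for 15 genes of ER-associated degradation and 18 of translocation into the ER. Of all protein-coding genes 0.764% were listed at 21 h and 0.631% in sporulation medium, which comes to less than 1 gene for a list of any of these sizes, so a count of 0 is near the background. Of 21 glycolytic and other strongly transcribed genes, GLK1 was listed once on each side and 0 were called.

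Summits between divergent genes were common on both sides. Of the 16 sites called at 21 h, 11 lay in the windows of 2 genes, as did 8 of the 9 sites called in sporulation medium. Over all listed summits the share was 63.6% and 60.9% at 21 h. In sporulation medium it was 75.0% and 61.1% at 5.5 h, 77.8% and 84.6% at 6 h 45 min, and 90.0% and 81.3% at 8 h. The mean was 62.3% ± 1.96 (SD, n = 2) at 21 h and 78.3% ± 9.92 (SD, n = 6) in sporulation medium. The ranges met, since 5.5 h replicate 2 lay below 21 h replicate 1 (exact two-sided permutation test, p = 0.143, adjusted 0.19, where 0.0714 is the smallest that 2 against 6 allow). Within each replicate number the 21 h table had the lowest share (exact p = 0.125 with the replicate number as a block, the smallest possible). The nearest gene start lay a median of 222 bp from the summit over the 17 called sites, from 161 to 371 bp.

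In the other 6 ChIP tables, of vegetative growth, DTT treatment and 6 h BYTA, 23.3% to 30.8% of summits lay in 2 windows. The mean was 74.3% ± 11.2 (SD, n = 8) in the 8 late tables and 26.3% ± 2.72 (SD, n = 6) in the others, and the 2 ranges did not overlap. Over states, 4 against 3, the exact two-sided permutation test gave p = 0.0571, the smallest possible, for a comparison made after the shares had been seen. With the 15 best-scored summits of each table the means were 78.4% and 35.1%. The same few sites recur in the 8 late tables, so these shares describe largely the same promoters.

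**Figure D5:**
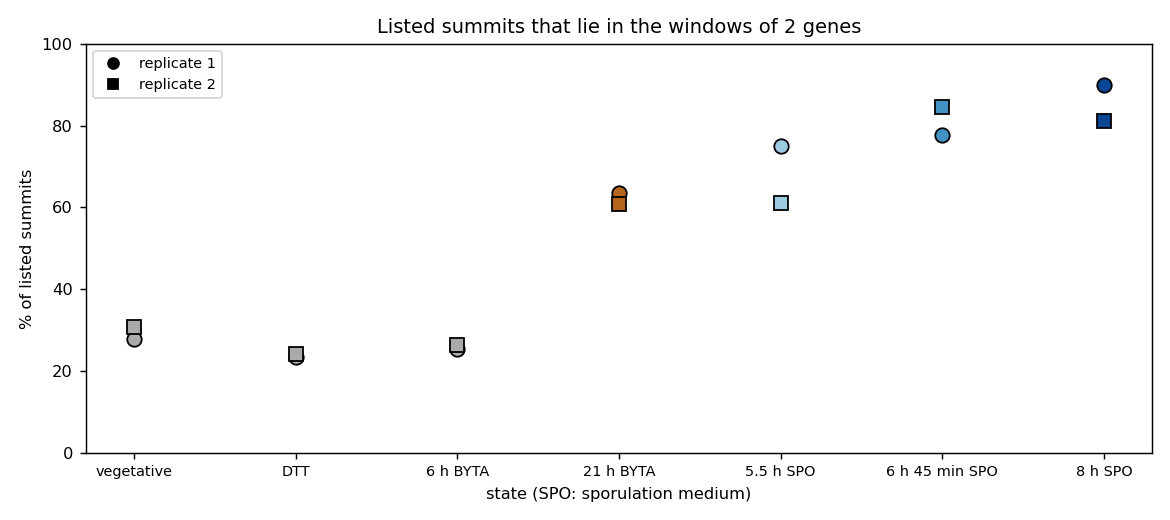
Percentage of listed summits that lie in the promoter windows of 2 genes, for each of the 14 ChIP tables by state. Circles are replicate 1 and squares replicate 2. The 8 late tables lie between 60.9% and 90.0% and the other 6 between 23.3% and 30.8%.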

How the data were processed

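Each table holds the peak summits of 1 ChIP library with the score the authors deposited, and the file headers do not name the score's type. The submitters' processing notes name ChIPseeker 1.44.0, MACS2 2.2.9.1, Bowtie2 2.3.4.1 and SAMtools 1.7 but give no roles. Not given in the sources used here are the read depth, the SK1 assembly, the control of each peak call and how listed summits were selected. Tables were assigned by the library name in the deposited peak names, so peaks had been called per library. Summit and window positions are SK1 coordinates as deposited. All 52 systematic names matched R64.

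Tables were read with pandas 2.3.3 under Python 3.11.15. Permutation tests enumerated all arrangements, and Fisher tests used SciPy 1.17.1, checked on simulated data, with Benjamini-Hochberg adjustment. Members, lists and tests were chosen with earlier results of these data known. Named genes were those called, those listed in 2 or more tables, and KAR2, HAC1, PDI1 and ERO1. Genes in a single table were named after their values were seen. The sites, the position tests, peak numbers, the order of MRPS17 with GCV2 and the comparison of shares in 2 windows were added after the data were seen. A planned search of promoters for UPR elements was not run, since no SK1 sequence was used here.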

Additional observations from a re-analysis of the deposited data

How the results depend on the processing

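Counting a gene when either table of a state listed it gave 46 genes at 21 h, 38 in sporulation medium and 32 on both sides, with 14 listed on the 21 h side alone and 6 on the sporulation side alone. Counting each summit for its nearest gene only, or counting sites, gave 16, 9 and 8. The number of 21 h calls absent from all sporulation tables was 0 as reported. It was 2 with scores of at least 500 and 2 with the 15 best-scored summits of each table (AVL9 and CFT2 in both cases). It was also 2 without the 5.5 h time (MDJ1 and MOT2). Leaving out each table in turn gave 27 to 37 genes called at 21 h, 17 to 31 in sporulation medium and 15 to 25 on both sides. It gave 0 to 9 on the 21 h side alone, the most without 21 h replicate 1, and 0 to 3 on the sporulation side alone. A state left with 1 table is called from that table, and a gene listed on a side in the omitted table alone is no longer listed there. With a table left out, the median summit distance was 3.6 to 6.25 bp over the genes shared, for which it was 3.4 bp with all tables (3.78 bp over sites). The difference in list length, 21 h minus sporulation medium, was then 13.1 to 17.5 genes (15.8 with all tables). That in HSH49 peak number was between -1030.5 and -700.1. The share in 2 windows was compared between the 8 late tables and the 6 others, and there the difference was between 45.8 and 49.9 percentage points. Taken over states, this difference between late and other tables was 48 points (exact permutation p = 0.0571, the smallest possible). The place of MRPS17 with GCV2 was 2.17 ranks lower at 21 h among 4 sites, 2 to 2.2 with a table left out, and 4 among 6 sites. The test of single genes over tables passed 0 genes with a table left out, with nearest genes only, with scores of at least 500 and with the 15 best-scored summits, and was not run with either table, over sites or without the 5.5 h time.

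The labels do not say what a replicate number shares. Replicate differences in listing correlated at 0.0372, -0.00988 and 0.119 between 21 h and the 3 sporulation times, and at 0.598, 0.466 and 0.359 among those times. With the replicate number as a block the difference in list length was 15.8 genes (exact permutation p = 0.125, the smallest possible), that in HSH49 peak number was -895 (exact p = 0.125), and 0 genes passed. Of 72 recomputed summit distances of single sites, 70 moved by less than the replicate SD of 6.57 bp. Depth is unknown.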
